A study of Mus musculus with 6 samples.

Results

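Open chromatin near *Myocd*, *Srf*, *Mef2a*, *Mef2c* and *Mef2d* was examined in ATAC-seq peak lists of 2 mouse embryonic tissues. A peak was assigned to one of these genes if that gene's body was the nearest protein-coding gene body, at a distance of at most 100 kb. This gave 42 of 49267 peaks in the list of the atria (HT) and 28 of 44018 in the list for pSHF, the posterior second heart field, whose progenitors add cells to the venous pole of the heart. All 5 genes had peaks in both lists. The embryos were wild type (WT), of the CD1 strain, an outbred stock, and were taken at embryonic day 10, with 3 samples per tissue. Tissue pieces were dissected and pooled, so the samples hold mixtures of cell types, and no group carried an engineered allele or a treatment. The question is which sites near these genes are open in progenitors, in the differentiated atria, or in both.

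Serum response factor (*Srf*) and the MEF2 proteins are MADS-box transcription factors. SRF binds the CArG box, an A/T-rich element of muscle and growth-response genes. Myocardin (*Myocd*) does not bind DNA itself but joins SRF and strongly activates smooth and cardiac muscle genes. MEF2 proteins bind another A/T-rich site and act with other muscle factors, and class IIa histone deacetylases hold them in check. *Mef2c* is active in the second heart field and is needed for looping of the heart tube and growth of the right ventricle.

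Sequence around the annotated starts is shown because peaks covered some starts and missed others. The RefSeq promoter table (GRCm38.p6, the build whose chromosome coordinates are those of mm10) held 6 starts for 4 of the 5 genes. *Myocd* was not matched, and no sequence is printed for it. For *Srf*, the 250 bases before the start lay wholly inside a peak in both lists (chr17:46556163-46556412, minus strand, 5′ to 3′, capitals mark matches to the CArG box):

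Srf: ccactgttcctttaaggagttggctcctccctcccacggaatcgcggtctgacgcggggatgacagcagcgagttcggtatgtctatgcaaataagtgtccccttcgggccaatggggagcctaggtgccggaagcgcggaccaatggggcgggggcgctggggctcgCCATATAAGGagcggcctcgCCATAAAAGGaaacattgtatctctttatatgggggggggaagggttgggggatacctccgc

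The matches CCATATAAGG and CCATAAAAGG lay 82 to 73 and 62 to 53 bases before the start. Of 32851 promoters of 300 bases, 1.63% held a CArG box and 0.0183% (6 promoters) held 2 or more, both strands searched. *Mef2a* carried 1 match to the MEF2 site, an element held by 3.19% of the promoters. It began 2 bases before the start at chr7:67372858 (minus strand) and is printed with the 18 bases before it, the match in capitals.

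Mef2a: ctggccgaggcctgactcCTAAAAATAG

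*Mef2c* has 3 starts in the table, and they stood differently in the peak lists. The 250 bases before each are printed with capitals for bases inside a peak of at least 1 list (chromosome 13, plus strand). Before the first start, at 83504034, no base was in a peak of either list. Before the second, at 83523656, 21 bases were in an HT peak and 124 in a pSHF peak, and both peaks covered the start itself. Before the last, at 83573607, 187 bases were in an HT peak that ended 7 bases short of the start, and none were in a pSHF peak.

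Mef2c, first start: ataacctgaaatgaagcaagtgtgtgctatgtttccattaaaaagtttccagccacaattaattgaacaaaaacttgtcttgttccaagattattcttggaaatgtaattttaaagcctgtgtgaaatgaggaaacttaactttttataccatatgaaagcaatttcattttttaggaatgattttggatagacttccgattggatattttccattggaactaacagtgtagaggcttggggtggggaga

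Mef2c, second start: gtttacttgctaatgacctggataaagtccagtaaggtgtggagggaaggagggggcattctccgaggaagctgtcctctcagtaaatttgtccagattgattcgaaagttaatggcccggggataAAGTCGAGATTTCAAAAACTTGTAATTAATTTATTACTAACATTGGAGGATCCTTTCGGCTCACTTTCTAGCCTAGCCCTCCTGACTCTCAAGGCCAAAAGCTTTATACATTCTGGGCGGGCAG

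Mef2c, last start: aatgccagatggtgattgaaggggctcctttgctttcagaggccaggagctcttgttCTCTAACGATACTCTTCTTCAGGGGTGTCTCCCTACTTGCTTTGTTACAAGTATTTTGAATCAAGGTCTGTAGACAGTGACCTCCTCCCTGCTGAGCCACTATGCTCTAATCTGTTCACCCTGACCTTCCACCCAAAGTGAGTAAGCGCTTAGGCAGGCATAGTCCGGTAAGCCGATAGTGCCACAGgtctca

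Neither a CArG box nor a MEF2 site was found in the 3 *Mef2c* promoters or in that of *Mef2d*, counting 50 bases after each start. GATAA occurred 2 times before the second *Mef2c* start. Of all promoters, 25.4% held it and 5.27% held 2 or more. CANNTG occurred 2 times before the first *Mef2c* start and 1 time before the last. Of all promoters, 72.3% held it and 39.6% held 2 or more. TNAAGTG, AGGTGTGA and GACCACCCA were found in none of the 6 promoters. All motifs were searched on both strands, and no matches overlapped each other. A match is a run of letters and does not show binding, nor does the lack of one show its absence. Over all 32619 starts on the chromosomes of the lists, 38.2% lay in an HT peak and 37.3% in a pSHF peak. Of the 6 starts of these genes, 4 lay in a peak in both lists, and the first and last starts of *Mef2c* lay in none.

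More of the peaks found in 1 list alone came from the atria. Peaks with 1 bp or more in common between the lists are termed shared, and all others restricted. Of the 42 HT peaks, 23 were restricted (54.8%, exact Clopper-Pearson 95% interval 38.7 to 70.2), where 45.5% of all HT peaks were. Of the 28 pSHF peaks, 5 were restricted (17.9%, 6.06 to 36.9), where 34.4% of all pSHF peaks were. These intervals cover counting error over peaks, which are not replicates. With 1 list per tissue there is no value per sample, so no test between tissues could be made and the spread between samples is unknown. A weaker peak can come from fewer cells with the site open or from less access per cell, and these cannot be told apart.

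Place changes what such shares are worth, since peaks far from gene starts are more often restricted. More than 1 kb from any annotated gene start or protein-coding gene end, 18 of 31 HT peaks of these genes were restricted (58.1%, 39.1 to 75.5), near the 61.8% of all such HT peaks. In the pSHF list 4 of 17 were (23.5%, 6.81 to 49.9), below the 50.3% of all such pSHF peaks. Within 1 kb of a start or end, 5 of 11 HT peaks were restricted, against 16.4% of all such HT peaks, and 1 of 11 pSHF peaks, against 13.5%. With the 5 genes pooled, the HT share was therefore near its background away from gene ends and above it within 1 kb of them. The pooled pSHF share away from gene ends was low, but not at each gene. It was 1 of 9 at *Mef2c* and 0 of 2 at *Myocd* and at *Srf*, but 2 of 3 at *Mef2d* and 1 of 1 at *Mef2a*.

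**Figure D1:**
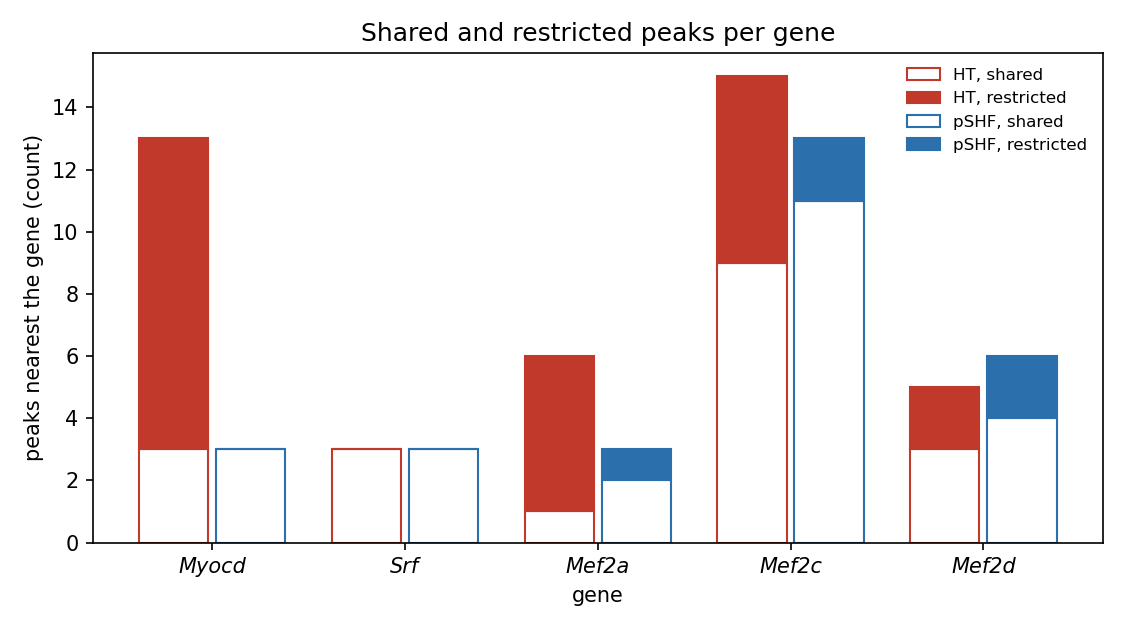
Number of peaks nearest each gene (vertical axis) in the HT list (red) and the pSHF list (blue), with shared peaks open and restricted peaks filled. *Myocd* had 10 restricted peaks in HT and none in pSHF, and *Srf* had none in either list.

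Strength is given as the summit pileup, the number of reads the authors' peak caller counted at the summit, recovered from the fold enrichment and the p-value of each deposited line. A summit at the genome-wide background would hold 0.824 reads in HT and 0.857 in pSHF, so total coverage was close. Close coverage does not make the lists equally sensitive. Shared peaks had a median fold enrichment of 6.996 in HT and 5.543 in pSHF, and a median pileup of 18 and 15 reads. The whole lists held 22400 HT-restricted and 15132 pSHF-restricted peaks. How much of this surplus, or of that at the 5 genes, goes with the stronger HT signal was not tested. The median HT peak held 12 reads and the median pSHF peak 11. Intervals beside pileups are exact Poisson 95% intervals and cover counting error only.

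*Myocd* (chr11:65173608-65269989) had 13 HT peaks and 3 pSHF peaks, and all 3 pSHF peaks overlapped an HT peak. It thus had 10 HT-restricted and 0 pSHF-restricted peaks. Over 21631 protein-coding genes, 6400 (29.6%) had more HT-restricted than pSHF-restricted peaks, and 17 (0.0786%) had an excess of at least the 10 found at *Myocd*. Of those 17, *Myocd* was the one with no pSHF-restricted peak. The level of 10 is *Myocd*'s own, chosen after its value was seen, so this places the gene and tests nothing. The ground nearest *Myocd* measured 202 kb and held 4.95 HT-restricted peaks per 100 kb, against 1.07 over the ground of all genes. The excess depends on weak peaks. It was 4 (5 HT-restricted, 1 pSHF-restricted) when only lines with −log10 q of 5 or more were kept in the lists. It was 3 when restricted peaks below their list's median fold were left out. At these settings the excess at *Mef2c* was 6 and 4, above that at *Myocd*.

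The strongest *Myocd* peak was restricted to the atria and lay inside the gene, at chr11:65209436-65209840, with 31 reads (21.1 to 44.0), 8.30 times the caller's background. Only 1.72% of all HT-restricted peaks held as many reads. At the background measured there in HT, a pSHF summit of 10 reads would have been listed. A peak of 18 reads (10.7 to 28.4) at chr11:65205386-65205597 and one of 11 at chr11:65208214-65208397 lay close by, so that 3 restricted peaks stood together in the body of the gene.

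Beyond the upper end of the gene 2 more HT-restricted peaks were found, 79.2 and 96.0 kb away. They held 12 reads (6.20 to 21.0) at chr11:65349163-65349451 and 13 (6.92 to 22.2) at chr11:65365942-65366293. The RefSeq table lists no gene at either place. The other 5 restricted peaks, all inside the gene, were weak, with 5 to 8 reads, and 2 of them stood at 5 reads, the smallest pileup in the HT list.

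The 3 shared *Myocd* sites included the upper end of the gene, which also overlaps the lncRNA *Gm30586*. There the pileup was 26 reads in HT (17.0 to 38.1) and 19 in pSHF (11.4 to 29.7), so this end was open in both tissues. Ends of *Myocd* are named by coordinate alone. No start was matched for it, so its start and its 3′ end were not told apart. The site 33.8 kb beyond it held 15 reads in HT and 7 in pSHF. A site inside the gene, at chr11:65215349-65215603, was the exception among the 3, with 6 reads in HT and 10 in pSHF. In all 3 the intervals of the tissues overlapped.

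**Figure D2:**
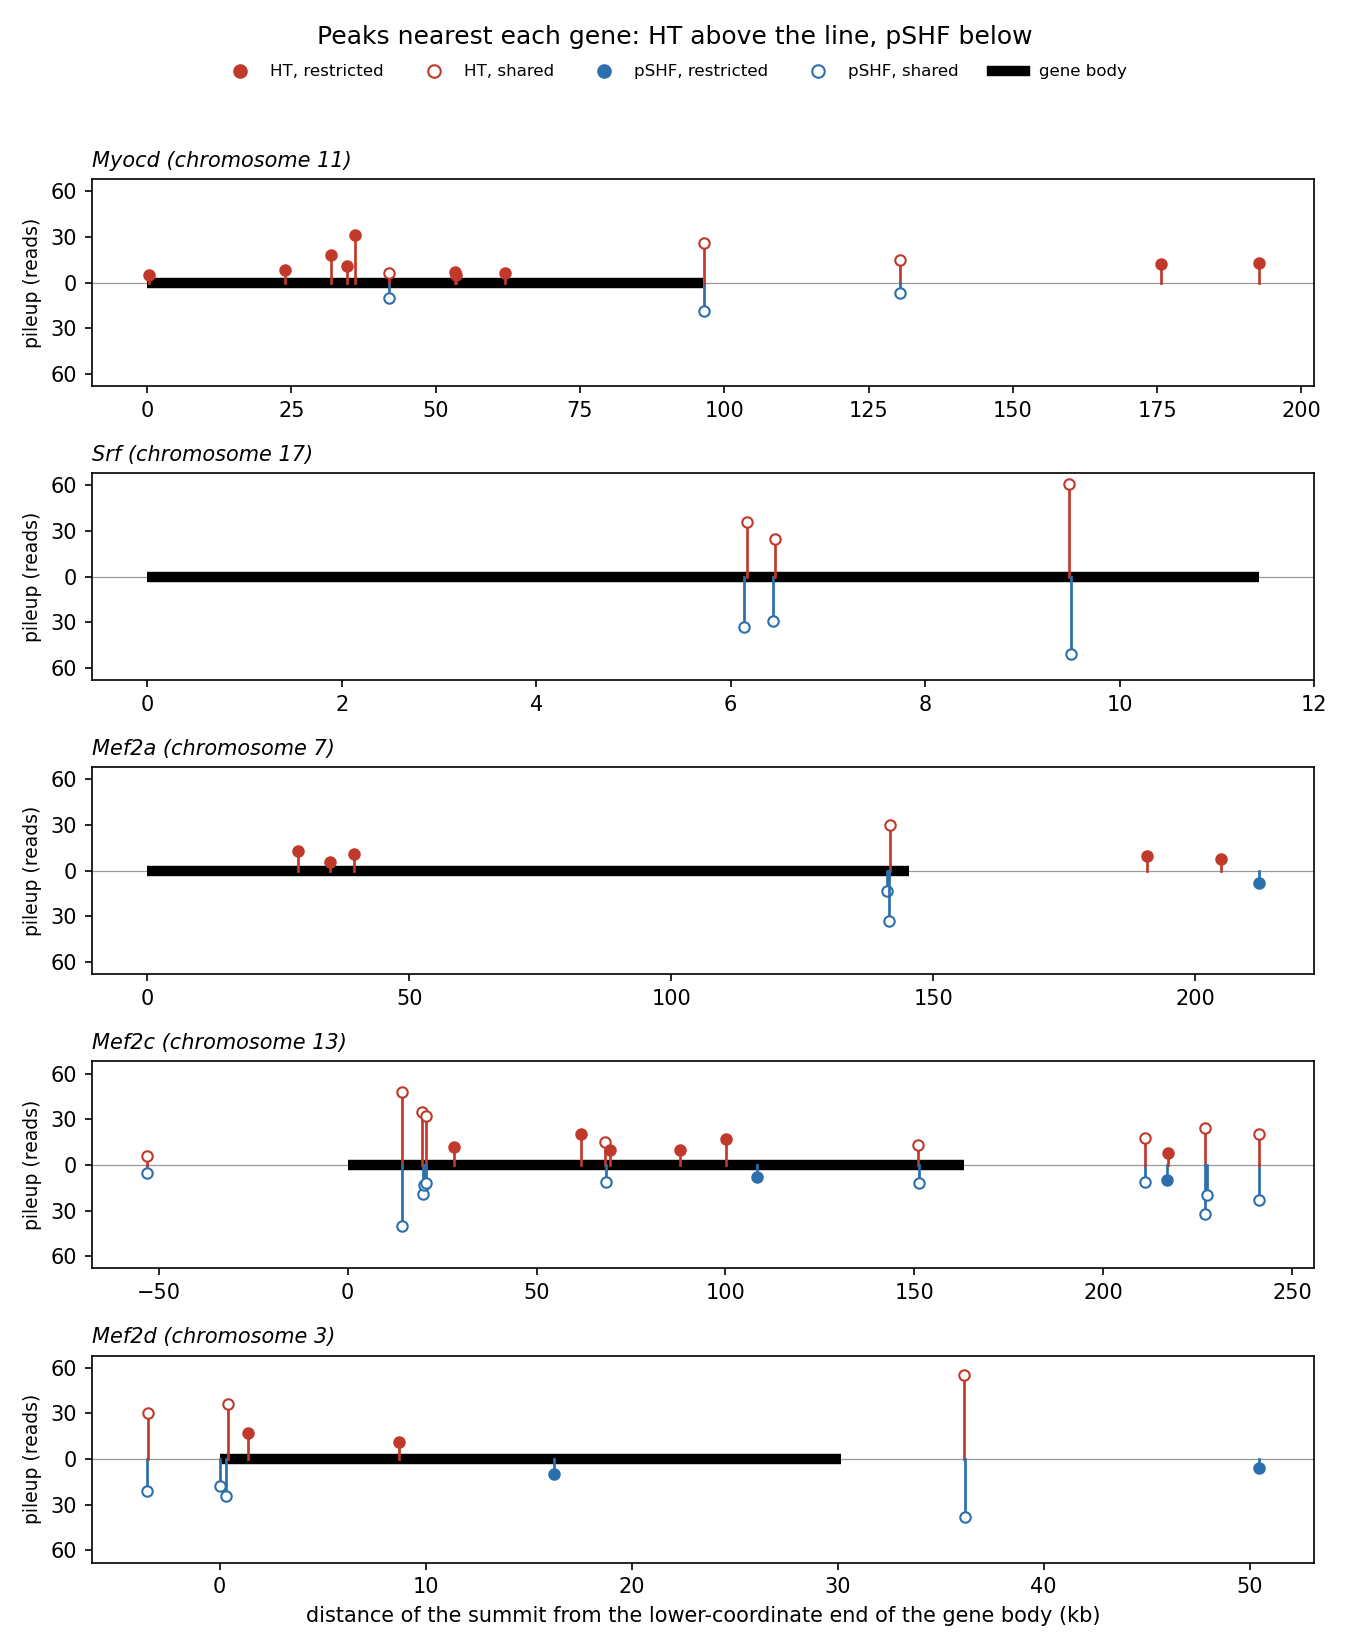
Summit pileup in reads (vertical axis, HT upward in red, pSHF downward in blue) against the distance of the summit from the lower-coordinate end of each gene body in kb, with restricted peaks filled, shared peaks open and the gene body as a black bar. At *Myocd* the filled red points lie across the gene and beyond it, with a highest value of 31 reads, and no blue point is filled.

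*Srf* (chr17:46546838-46558267) had 3 peaks in each list, all shared, and its start had the highest pileup in either list among the 5 genes. Its body of 11.4 kb is hemmed in by neighbours, and 14 kb of ground lie nearest to it, so few other peaks could be assigned to it. At the annotated start, chr17:46555969-46556787, the pileup was 61 reads in HT (46.7 to 78.4) and 51 in pSHF (38.0 to 67.1). This is the site whose sequence holds the CArG boxes shown above. The other 2 sites lie inside the gene and held 36 and 25 reads in HT and 33 and 29 in pSHF. At every *Srf* site the intervals of the tissues overlapped, and the pSHF-to-HT ratio lay between 0.836 and 1.16.

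*Mef2a* (chr7:67231163-67376456) had 1 shared site, at its annotated start, and all its other peaks were restricted. At the start, chr7:67372311-67373616, 1 HT peak of 30 reads (20.2 to 42.8) faced 2 pSHF peaks of 33 (22.7 to 46.3) and 13 reads. The 5 HT-restricted peaks held 6 to 13 reads. The strongest, at chr7:67259959-67260123, stood with 2 others inside the gene, more than 100 kb from the start. Another 2 lay 45.3 and 59.6 kb outside the gene, the latter in the lncRNA *Gm33926*. The 1 pSHF-restricted peak, 66.7 kb outside, held 8 reads (3.45 to 15.8). *Mef2a* thus had an excess of 4 in HT, a value reached or passed by 731 of 21631 genes.

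*Mef2c* (chr13:83504017-83667079), the gene with the most peaks, had 15 in HT and 13 in pSHF, joined in 17 sites of which 9 were shared. The strongest, inside the gene at chr13:83517945-83518766, was almost the same in both tissues, with 48 reads in HT (35.4 to 63.6), 40 in pSHF (28.6 to 54.5) and summits 1 bp apart. This HT peak began 13911 bp past the first annotated start, which had no peak of its own. At the second start, chr13:83523532-83524031, the pileup was 35 reads in HT (24.4 to 48.7) and 19 in pSHF (11.4 to 29.7). The neighbouring site, chr13:83524197-83524921, held 32 reads in HT (21.9 to 45.2) and 13 in pSHF (6.92 to 22.2), with the summits 532 bp apart. The HT summit there fell in a second pSHF peak, of 12 reads.

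These were the 2 shared sites of all 19 at which the interval of the pSHF-to-HT ratio excluded 1. Over all 25968 shared sites of the lists 15.0% had such an interval, and at 14.5% it lay below 1, so 2 of 19 is no more than shared sites show in general. The ratio was 0.543 at the second start (exact conditional 95% interval 0.293 to 0.975) and 0.406 next to it (0.196 to 0.796). The intervals cover the reads of these lists alone, not the spread between embryos, and were not adjusted for the 19 sites. At both sites the atrial value was the higher. Over all shared sites the median ratio was 0.800, which the interval at the start includes and that of the neighbour ends just below.

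The 6 HT-restricted *Mef2c* peaks held 8 to 20 reads, and 5 of them lay inside the gene. The strongest, at chr13:83565689-83566016, held 20 reads (12.2 to 30.9) where 7 would have been listed in pSHF. The next, at chr13:83603957-83604172, held 17 (9.90 to 27.2) and overlaps the lncRNA *Gm52043*. The peak at the last start held 10 reads (4.80 to 18.4), and 7 would have been listed there. The remaining 3 held 12, 10 and 8. The 2 pSHF-restricted peaks held few reads, 8 and 10. One of them, chr13:83720843-83720960, ended 66 bp before the HT-restricted peak chr13:83721026-83721257, so this pair of restricted peaks marks neighbouring stretches of 1 place. *Mef2c* had an excess of 4 in HT, which was 2 when sharing required 50% reciprocal overlap. It was 6 when only lines with −log10 q of 5 or more were kept in the lists. An excess of at least 4 was found at 731 of 21631 genes. Of the *Mef2c* peaks in HT, 40.0% were restricted, against 45.5% of all HT peaks. The ground nearest *Mef2c* measured 363 kb and held 1.65 HT-restricted peaks per 100 kb, against 1.07 over the ground of all genes. This density was 2.33 at *Mef2a*, 2.63 at *Mef2d* with its 76 kb of ground, and 0 at *Srf*. That of pSHF-restricted peaks was 2.63 at *Mef2d*, 0.551 at *Mef2c*, 0.465 at *Mef2a* and 0 at *Myocd* and *Srf*, against 0.693 over all genes.

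Beyond the far end of *Mef2c*, peaks were mostly common to both tissues. Both lists held 3 of the 5 sites there, 47.9 to 77.8 kb outside the gene. The order of the tissues varied, but at each of these the interval of the pSHF-to-HT ratio included 1. Nearest the gene, at chr13:83715018-83715323, HT held 18 reads and pSHF 11. At chr13:83730595-83731632, in the lncRNA *C130071C03Rik* that spans *Mir9-2*, it was 24 in HT and 32 in pSHF, and at chr13:83744881-83745493 it was 20 and 23. These sites are assigned to *Mef2c* by nearness alone. The other 3 shared sites of *Mef2c*, 1 of them 53.0 kb before the gene and 2 inside it, held 6, 15 and 13 reads in HT and 5, 11 and 12 in pSHF. At the 2 inside the gene the summits lay 155 and 103 bp apart, each outside the other tissue's peak. Their pileups thus belong to neighbouring stretches.

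*Mef2d* (chr3:88141941-88172091), a broadly expressed member of the family, had 5 HT and 6 pSHF peaks and equal numbers of restricted peaks, 2 and 2. Its strongest site, chr3:88177506-88178300, lay 5.42 kb past the gene at the lncRNA *1700113A16Rik*, with 55 reads in HT (41.4 to 71.6) and 38 in pSHF (26.9 to 52.2). At the annotated start, chr3:88141876-88142671, 36 reads in HT (25.2 to 49.8) faced 24 in pSHF (15.4 to 35.7). A site 3.36 kb before the gene held 30 and 21. All 3 shared *Mef2d* sites were higher in HT, with a median pSHF-to-HT ratio of 0.691, and at each the intervals of the tissues overlapped.

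The restricted *Mef2d* peaks were close to the listing level. In HT they held 17 reads, where 15 would have been listed in pSHF at the local background of 5.36 reads, and 11 reads, where 8 would have been. In pSHF they held 10 and 6 reads. With 50% reciprocal overlap 1 more pSHF-restricted than HT-restricted peak was counted, in place of equal numbers.

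**Figure D3:**
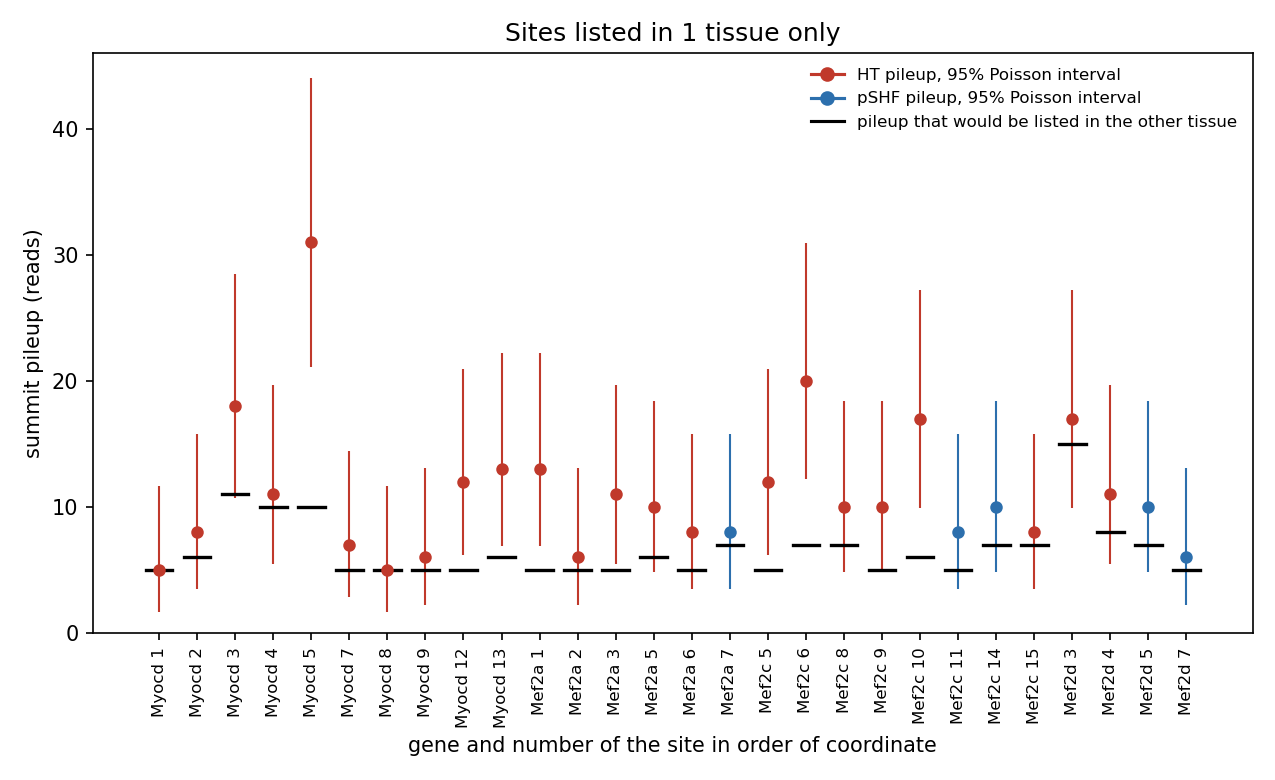
Summit pileup in reads of the 28 sites found in 1 list, HT in red and pSHF in blue, with 95% Poisson intervals, and a black line at the pileup that would have been listed in the other tissue at the same local background. The lower end of the interval was at or above the line at 8 sites, all of them HT-restricted, and the highest point is the *Myocd* site of 31 reads.

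Of the 28 restricted sites, 8 had a pileup whose lower bound reached the level at which the other list would have held the site, if its local background was the same there. These were 8 of 23 HT-restricted sites, where 24.2% of all HT-restricted peaks met the same rule, and 0 of 5 pSHF-restricted sites, where 6.83% of all pSHF-restricted peaks did. Of the 8, 3 were at *Myocd*, 3 at *Mef2c* and 2 at *Mef2a*. Their lower bounds ran from 5.49 reads against a level of 5, at *Mef2a*, to 21.1 against 10, at *Myocd*. The rule makes no allowance for the lower pileups of pSHF at shared sites in general (median pSHF-to-HT ratio 0.8). The HT and pSHF counts are therefore not on an equal footing. At the other 20 restricted sites, 5 of them in pSHF, counting error alone spans the listing level, so their presence in 1 list shows no difference at this depth. The rule also gives no counting error to the list that lacks the site. Meeting it at the 8 sites therefore does not show a difference between the tissues either. A site narrower than the shortest listed peak, 121 bp in HT and 118 bp in pSHF, would also be missing from a list.

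**Figure D4:**
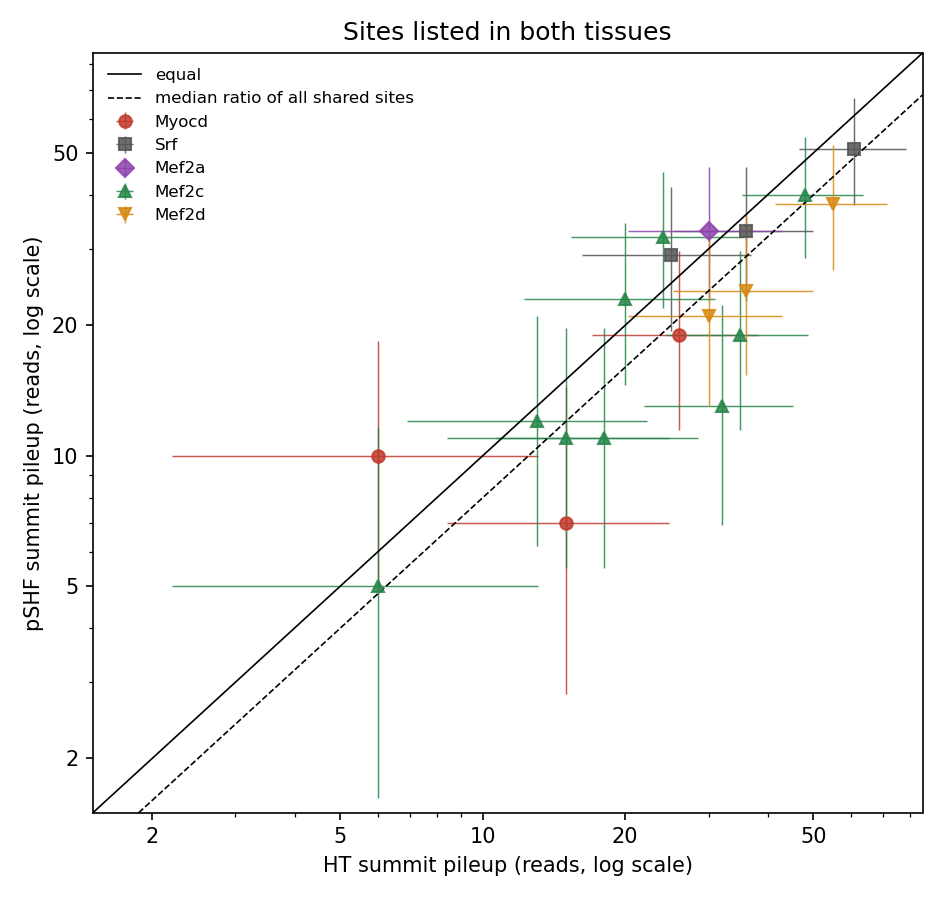
Summit pileup in reads in pSHF (vertical, log scale) against HT (horizontal, log scale) at the 19 shared sites, with 95% Poisson intervals, the line of equal values (solid) and the median ratio of all shared sites (dashed). Most points lie below the solid line, and the *Mef2c* point at 32 and 13 reads lies farthest below it.

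Among the shared sites of the 5 genes, 14 of 19 were higher in HT and 5 in pSHF, with a median pSHF-to-HT pileup ratio of 0.833. Over all 25968 shared sites of the lists the median was 0.800, the lower quartile 0.636, and 69.1% were higher in HT. The shared sites of these genes therefore had about the ratio of shared sites in general.

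**Figure D5:**
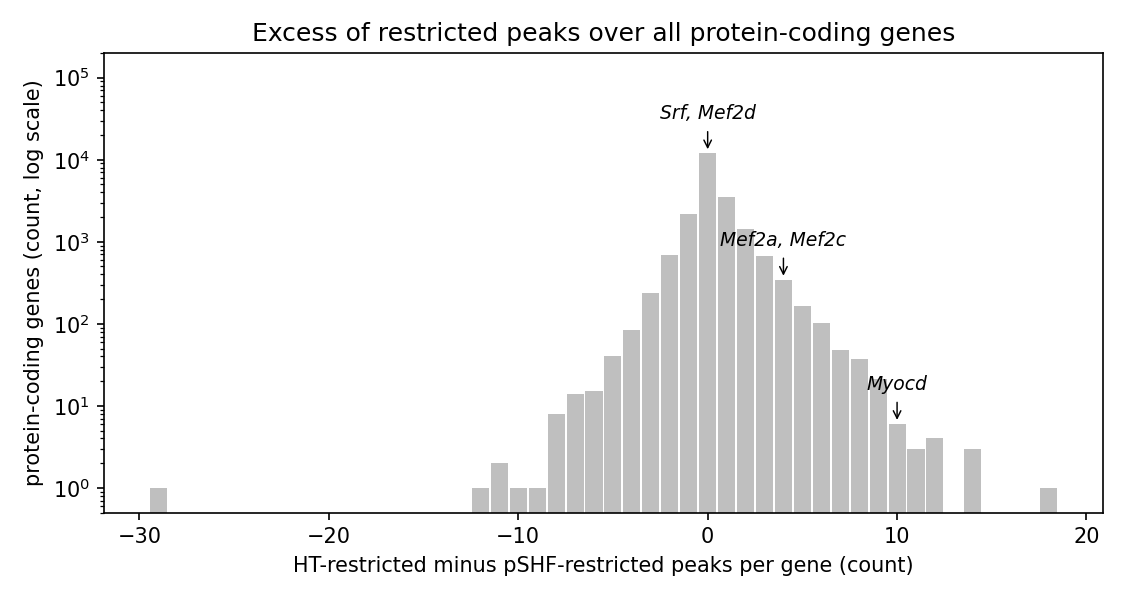
Number of protein-coding genes (vertical, log scale) at each value of HT-restricted minus pSHF-restricted peaks per gene (horizontal), with the 5 genes marked. *Myocd* stands at 10, *Mef2a* and *Mef2c* at 4, and *Srf* and *Mef2d* at 0.

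Genes with the most similar peak counts were sought over the 4 counts (HT-restricted, HT shared, pSHF-restricted, pSHF shared) of the 2 tissues. *Adcy1* and *Etv6* were nearest to *Myocd*, at a summed difference of 1 peak. *Adcy1* had 9 HT-restricted peaks and *Etv6* 10, with 0 and 1 restricted to pSHF. Of the 21631 genes, 175 others had exactly the counts of *Srf*, 13 those of *Mef2d* and 4 those of *Mef2a*.

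Partners and targets of these factors had more restricted peaks in HT than in pSHF, as did genes in general. Near the 10 SRF and myocardin cofactor genes lay 25 peaks restricted to HT and 12 to pSHF, with HT ahead at 5 genes and pSHF at 2 and a median difference of 0.5. *Mrtfa*, a myocardin-related coactivator controlled by actin, had 7 and 1, *Hopx*, an SRF antagonist, 4 and 0, and the ternary complex factor gene *Elk3* 5 and 2. *Fhl2*, a LIM-domain cofactor, had 3 and 4, and *Elk4*, another ternary complex factor gene, 0 and 1. Over all protein-coding genes the median difference was 0 and the mean 0.330, with HT ahead at 29.6% of genes. These include 4937 genes with no peak in either list, whereas every cofactor, regulator and target gene listed here had a peak. The 29.6%, the median and the mean are thus not of a like set of genes. Counted by gene, restricted peaks over all protein-coding genes numbered 20196 in HT and 13063 in pSHF. Genes with no peak add nothing to these totals.

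The 11 MEF2 repressors and regulators had 29 HT-restricted and 18 pSHF-restricted peaks, with HT ahead at 5 genes and a median difference of 0. *Camk2d*, a calcium/calmodulin-dependent kinase, had 11 and 3. Among the repressor genes *Cabin1* had 2 and 0, *Hdac5* 1 and 0, *Hdac7* 3 and 2, *Hdac4* 1 and 1, and *Hdac9* 7 and 7. *Mapk14*, the p38 kinase that phosphorylates MEF2, had 0 and 2.

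The 13 SRF and myocardin targets had 20 HT-restricted and 6 pSHF-restricted peaks, with HT ahead at 9 genes and a median difference of 1. *Actc1*, cardiac alpha-actin, had 4 and 0. Among its smooth muscle genes *Smtn* had 2 and 0, *Acta2* 2 and 1, *Lmod1* and *Actg2* 1 and 0 each, *Myh11* 1 and 1, *Tagln* 0 and 0, and *Cnn1* 0 and 1. The 11 MEF2 targets had 30 and 16, with HT ahead at 8 genes and a median difference of 1. *Xirp2* and *Xirp1*, genes of actin-binding proteins of muscle, had 4 and 0, and 3 and 0, while *Myom2*, an M-band gene, had 2 and 3 and *Nr4a1*, an immediate-early nuclear receptor gene, 0 and 1. These lists describe the surroundings of the genes and were not tested.

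The tissue labels were checked against marker genes. HT-restricted peaks outnumbered pSHF-restricted ones at 7 of 8 cardiomyocyte markers, 25 against 1 in all, and *Nkx2-5*, *Myh6*, *Nppa* and *Ttn* had no pSHF peak. *Tnnt2* went the other way, with 0 against 1. The pSHF markers, 7 genes, showed the reverse order at 5 and equal counts at 2, with 6 against 30 in all. The equal ones were *Isl1* and *Hoxb1*, each with 2 against 2, and *Osr1* had 0 against 1. Much of the pSHF total came from *Gas1*, with 0 against 11, and *Foxf1*, with 1 against 7. Other cell types also differed between the lists. HT was ahead at 3 of 4 endothelial genes (26 against 11) and at 4 of 4 erythroid genes (11 against 0), and pSHF at 3 of 3 foregut endoderm genes (7 against 14) and 4 of 4 somite and skeletal muscle genes (3 against 7). Over all protein-coding genes, those with no peak included, HT was ahead at 29.6% and pSHF at 15.1%. Epicardial genes had 10 against 8, with HT ahead at 2 of 3 and pSHF at 1. Neural crest genes had 2 against 1, with HT ahead at 1 of 3, equal counts at 2 and no peak at *Sox10*. *Mef2c* is also active in endothelial, neural crest and skeletal muscle cells, and the part of these cells in its peaks was not tested.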

How the data were processed

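ATAC-seq, which maps accessible DNA with a transposase, was run on 3 samples of each tissue, and the authors deposited 1 peak list per tissue. Bowtie2 2.3.2, SAMtools 1.5, Picard, MACS2 2.1.1 and the build mm10 are named per the submitters' processing notes. Their settings, and whether samples were pooled for peak calling, are not stated. Each deposited line gives a score, a fold enrichment (a ratio over the caller's background), and −log10 p and q values at a summit.

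Lines with equal intervals were merged, keeping the summit of highest fold. Genes came from a RefSeq table of GRCm38.p6, and exons and introns were not told apart. Pileups are the whole numbers p at which fold equals (p + 1)/(background + 1) and the Poisson tail gives the p-value. They were found for 100% of lines within 0.01 (log10), a step also checked on simulated data. Counts used Python 3.11.15, pandas 2.3.3 and scipy 1.17.1. The pileup at which a restricted site would have been listed is the smallest that reaches the other list's lowest −log10 p at the site's own background.

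The genes, lists and rules were chosen with earlier results of these data known. The use of annotated starts for place, the ratio intervals, the listing level and the density of peaks were added after the peaks were seen. Named were the 5 genes, genes of the pathway lists that differed by at least 3 or most each way, the genes of most similar counts where at most 3 tied (for *Mef2c* not reported here), and, for their roles, the repressors and smooth muscle genes of these lists. Marker lists are given as counts, naming cardiomyocyte genes with no pSHF peak or of the opposite order. The pSHF markers with the largest or smallest differences and the 1 gene with no peak are also named. Alternatives changed overlap, q threshold, strength, distance limit and measure, and gene-end peaks.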

Additional observations from a re-analysis of the deposited data

How the results depend on the processing

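Each count was recomputed under 8 planned settings and 1 added after the data were seen, 63 values in all, of which 49 stayed within 1.5 times and 14 moved further, and no nonzero excess changed sign. The 23 HT-restricted peaks became 14 with lines under a −log10 q of 5 left out of both lists, 10 with restricted peaks below the median fold left out, and 11 with restricted peaks under a −log10 q of 5 left out but presence judged against the whole other list (the added setting). The 5 pSHF-restricted peaks became 1, 0 and 0 under these, 13 with 50% reciprocal overlap, 3 within 50 kb and 9 within 500 kb. The excess of 10 at *Myocd* became 4, 3 and 4 under the same 3 settings on strength. Under them the excess at *Mef2c* was 6, 4 and 4 and that at *Mef2a* 3, 3 and 3. *Myocd* thus no longer stood above *Mef2c*. With 50% reciprocal overlap the excess of 4 at *Mef2c* became 2 and that of 0 at *Mef2d* became -1. The stricter settings keep fewer peaks by construction, and reciprocal overlap shares fewer. No setting moved the values at *Srf* or *Mef2a* by over 1.5 times.

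No paired analysis was possible because each tissue has 1 list with no replicate columns, and leaving out a replicate was not possible either. Pileups down to 5 reads limit the precision at single sites.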
